A study of Mus musculus with 12 samples.

Results

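The 10 genes described here belong to the response of the endoplasmic reticulum to misfolded protein. They were chosen by symbol, as all probes annotated to Hspa5, Hsp90b1, Pdia4, Calr, Herpud1, Dnajb9, Xbp1, Atf4, Ddit3 and Trib3 on an Illumina mouse bead array. Of these 10 genes 9 have a probe, together 12 of the 24613 probes on the array. Trib3 has 3 probes, Atf4 has 2, and no probe is annotated to Dnajb9.

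The arrays measured RNA of primary cultures enriched in astrocytes, grown from the cerebral cortex of 2-day-old mice and used after 21 days in culture. SAMP8 is a mouse strain with accelerated senescence, SAMR1 is its senescence-resistant control, and both descend from AKR/J. Cultures of each strain were given for 48 h medium with 10% heat-inactivated rat serum, from donors that ate ad libitum (AL) or were under caloric restriction (CR). SAMR1-AL and SAMP8-AL are the groups given AL serum and SAMR1-CR and SAMP8-CR those given CR serum, with 3 arrays each from 3 independent experiments per the methods. Mice of both strains were untreated, the restriction was applied to the serum donors only, and the cultures also hold a minority of microglia. The design asks how the strains differ under each serum (P8AL-R1AL and P8CR-R1CR) and how CR serum acts on each strain (R1CR-R1AL and P8CR-P8AL).

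When unfolded protein accumulates in the endoplasmic reticulum, the chaperone encoded by Hspa5 is drawn away from 3 membrane sensors, IRE1, PERK and ATF6. IRE1 splices the mRNA of the transcription factor XBP1, PERK slows translation while favouring that of ATF4, and ATF6 is cut to release a transcription factor. Their targets are chaperones and folding enzymes, the machinery that removes faulty protein from the endoplasmic reticulum, and, under lasting stress, the factor encoded by Ddit3 (CHOP). The arrays measured total mRNA, so that the splicing of Xbp1 and the translation of Atf4 are outside what they show.

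The start regions of 3 members are printed because they carry the elements through which ATF6 and XBP1 are known to act. The windows are RefSeq's, on GRCm38.p6, from 250 bases before to 50 after each gene's start, and all 10 members matched a window. Both strands were searched for 4 elements, and capitals mark every match. The ER stress response element (ERSE) was searched as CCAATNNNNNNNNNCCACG, ERSE-II as ATTGGNCCACG, the unfolded protein response element (UPRE) as TGACGTGG and an ATF4 element as TGATGNAA.
Hspa5, chr2:34771840-34772139, plus strand: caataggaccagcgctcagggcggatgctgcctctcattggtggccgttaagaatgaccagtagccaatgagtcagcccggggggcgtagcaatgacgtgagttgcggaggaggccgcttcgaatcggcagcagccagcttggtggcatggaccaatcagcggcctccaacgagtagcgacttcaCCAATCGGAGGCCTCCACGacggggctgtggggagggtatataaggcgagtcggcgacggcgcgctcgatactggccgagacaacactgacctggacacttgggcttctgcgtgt
Hsp90b1, chr10:86705395-86705694, minus strand: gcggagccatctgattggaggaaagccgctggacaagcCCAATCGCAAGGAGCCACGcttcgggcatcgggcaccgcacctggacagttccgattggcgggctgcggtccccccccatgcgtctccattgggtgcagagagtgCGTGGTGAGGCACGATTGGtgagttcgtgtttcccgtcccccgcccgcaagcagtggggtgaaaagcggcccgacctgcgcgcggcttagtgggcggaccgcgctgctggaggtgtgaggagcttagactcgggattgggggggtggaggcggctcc
Herpud1, chr8:94386179-94386478, plus strand: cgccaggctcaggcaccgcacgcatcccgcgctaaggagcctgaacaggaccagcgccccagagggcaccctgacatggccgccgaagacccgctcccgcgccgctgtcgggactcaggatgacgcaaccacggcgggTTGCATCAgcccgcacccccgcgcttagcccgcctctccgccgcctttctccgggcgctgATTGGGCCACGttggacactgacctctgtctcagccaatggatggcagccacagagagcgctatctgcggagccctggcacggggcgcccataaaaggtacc
Hspa5 holds 1 ERSE, whose first base lies 65 bases before the start. Hsp90b1 holds 1 on each strand, and Calr holds 1. The 3 members with an ERSE stand against 0.119% of the 32851 windows of the same length. Herpud1 is the only member with an ERSE-II, an element found in 0.0365% of windows, and it also holds an ATF4 element on the minus strand. The ATF4 element was found in Herpud1 and Trib3 and in 3.97% of all windows, and UPRE in none of the members and 0.676% of windows. The elements were searched because they are known for this response, so the shares beside them are no test. A match is a description of letters and does not show that a factor binds there.

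The Herpud1 probe, ILMN_2604741, is shown because the strain difference of this gene rests on it alone. It is a 50-base oligonucleotide, from the study's array annotation.
Herpud1 probe: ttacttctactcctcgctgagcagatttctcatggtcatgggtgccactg

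The deposited values are bead intensities, each with a detection p against the negative control beads of its array. Between 41.2% and 46.7% of probes were detected at p under 0.05 on an array. Values below are normalized log2 intensities, the log2 intensity with the array's mean removed and its SD brought to the average SD. A difference is then a log2 fold change on that scale. The spread of log2 intensities ran from an SD of 1.23 to 1.61 over the arrays, and the arrays form 2 sets by their lowest intensity, 7.01 to 8.19 on 8 arrays and 40.1 to 42.9 on the other 4. No label names these sets. The second set holds replicates 2 and 3 of SAMP8-AL and of SAMP8-CR and no SAMR1 array, so strain and array set are partly confounded.

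Of the 9 genes with a probe 8 passed the filter on dim probes, detection in every array of at least 1 group. Calr, an ER chaperone that holds calcium, was not detected on any array, with detection p from 0.172 to 0.467 and intensities from 72.6 to 108.8. No change in Calr can be given. Of the Trib3 probes ILMN_1225528 was tested, and the other 2 were not detected on any array.

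In SAMP8 astrocytes Hspa5 was lower and Herpud1 higher than in SAMR1, and the other 6 tested genes did not pass the test. Hspa5 fell by 0.47 on the log2 scale over both sera (SE 0.12, 6 arrays per strain) and Herpud1 rose by 0.50 (SE 0.12). Most SAMP8 arrays belong to the array set that holds no SAMR1 array. With the array set blocked neither gene was called (limma adjusted p = 0.255 for Hspa5 and 0.0907 for Herpud1). Under that block 7.96% of all probes were called, against 15.6% without it. In both genes every SAMP8 array lay on the same side of every SAMR1 array. The 2 genes called are among 8 tested, and 15.6% of the 10935 probes tested were called in this comparison, a background that comes to between 1 and 2 genes in 8. Strains did not overlap for the same 2 members and for 7.09% of all probes.

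**Figure D1:**
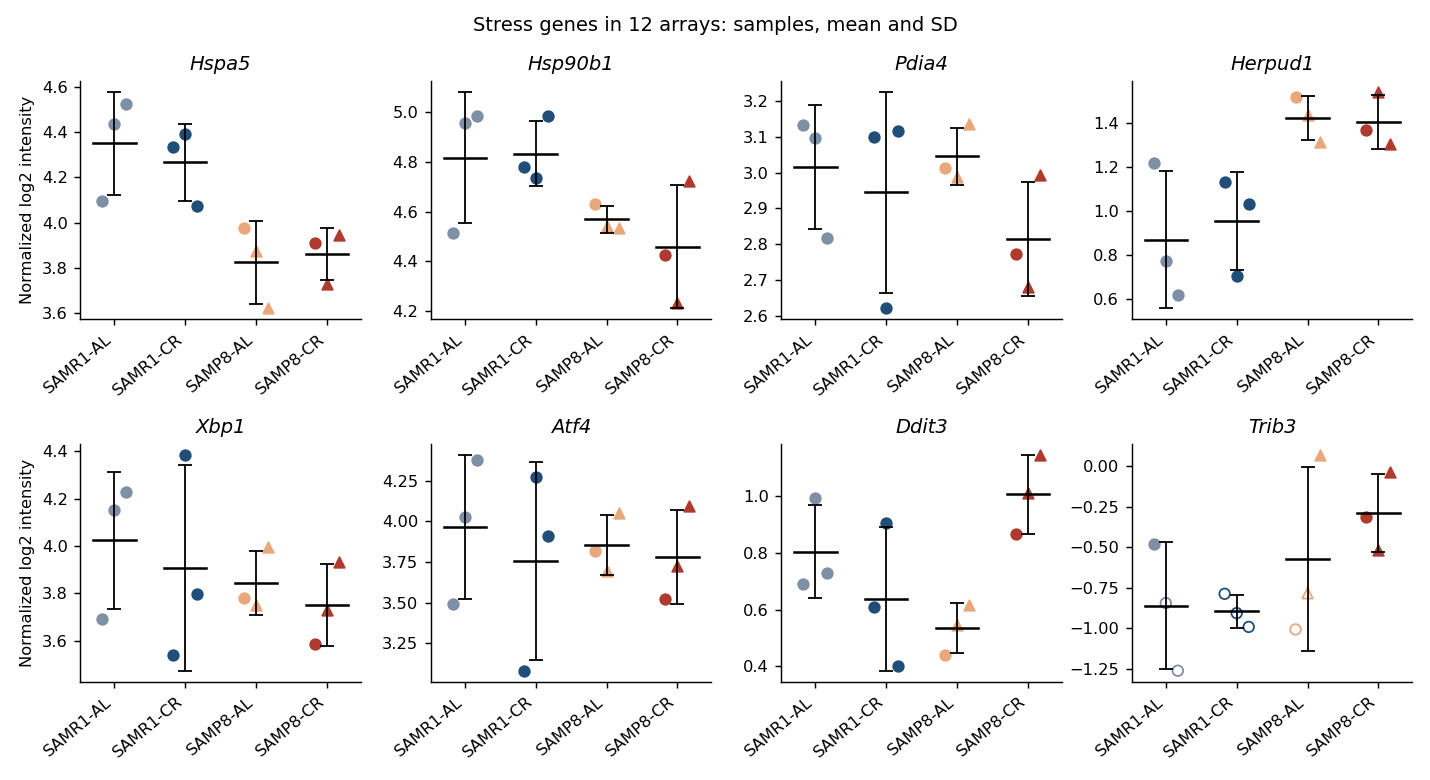
Normalized log2 intensity (vertical axis, a range of its own for each gene) of the 8 tested members in the 4 groups. Points are arrays, circles of the first array set and triangles of the second, open where the probe was not detected, and bars give mean and SD of 3 arrays. SAMP8 arrays lie below all SAMR1 arrays for Hspa5 and above all for Herpud1, and Ddit3 is highest in SAMP8-CR.

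Among the chaperones, Hspa5 encodes BiP, the main Hsp70 chaperone of the endoplasmic reticulum and the regulator of the sensors. Its gene lies at chr2:34772090-34776529 (GRCm38.p6). In SAMR1-AL its normalized log2 intensities were 4.09, 4.43 and 4.52, and in SAMR1-CR 4.33, 4.39 and 4.07. In SAMP8-AL they were 3.98, 3.87 and 3.62, and in SAMP8-CR 3.91, 3.73 and 3.94. All 6 SAMP8 values lie below the lowest SAMR1 value. The difference over both sera was -0.47 (95% interval -0.72 to -0.21, limma adjusted p = 0.0183), a fold of 0.724. Under AL serum alone it was -0.53 (adjusted p = 0.0671) and under CR serum alone -0.41 (adjusted p = 0.253), neither past the threshold of 0.05. The 2 SAMP8 arrays of the first set, at 3.98 and 3.91, also lie below every SAMR1 array.
The Hspa5 difference depends on the scaling. The deposited intensities of the strains overlap, from 1930.1 to 5271.2 in SAMR1 and from 1653.4 to 3863.2 in SAMP8. With each array centred on its median and not scaled the difference was -0.14 (adjusted p = 0.746), where the median of all probes moved to 0.16, and with quantile normalization -0.37 (adjusted p = 0.0345). Blocking the array set gave -0.36 (adjusted p = 0.255) and within the first set -0.36 (adjusted p = 0.501), and the call was also lost without SAMP8-AL replicate 3 (adjusted p = 0.06) or without SAMP8-CR replicate 2 (adjusted p = 0.0515).

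Hsp90b1 encodes GRP94, the Hsp90 chaperone of the endoplasmic reticulum. It was 4.51, 4.95 and 4.98 in SAMR1-AL and 4.78, 4.74 and 4.98 in SAMR1-CR. The SAMP8-AL arrays gave 4.63, 4.54 and 4.53 and the SAMP8-CR arrays 4.43, 4.23 and 4.72. The CR groups did not overlap, while SAMR1-AL replicate 1 lies within the SAMP8 values. The difference over both sera was -0.31 (95% interval -0.60 to -0.03, adjusted p = 0.128).
Pdia4, a disulfide isomerase that helps fold secreted proteins, ran from 2.62 to 3.13 in SAMR1 and from 2.68 to 3.14 in SAMP8. Its strain difference was -0.05 (95% interval -0.30 to 0.20, adjusted p = 0.804), and the groups overlap throughout.

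Herpud1 encodes a membrane protein of the endoplasmic reticulum that takes part in ER-associated degradation, and its gene lies at chr8:94386429-94395371 (GRCm38.p6). The SAMR1-AL arrays gave 1.22, 0.77 and 0.62 and the SAMR1-CR arrays 1.13, 0.70 and 1.03. The SAMP8-AL arrays gave 1.52, 1.44 and 1.32 and the SAMP8-CR arrays 1.37, 1.54 and 1.31. Every SAMP8 array is above the highest SAMR1 array, after scaling, and SAMP8 spreads less, with an SD of 0.10 and 0.12 in its groups against 0.31 and 0.22. The difference over both sera was 0.50 (95% interval 0.24 to 0.76, adjusted p = 0.0128), a fold of 1.42. It was 0.55 under AL serum (adjusted p = 0.0567) and 0.45 under CR serum (adjusted p = 0.203).
The deposited intensities overlap, from 203.6 to 481.2 in SAMR1 and from 333.5 to 520.0 in SAMP8. Leaving out any 1 array kept Herpud1 past the threshold, with differences from 0.44 to 0.58. The difference was 0.53 with the array set blocked (adjusted p = 0.0907) and 0.52 within the first set (adjusted p = 0.245), so the call was lost at about the same size. With median centring it was 0.62 (adjusted p = 0.0524). The 2 SAMP8 arrays of the first set, at 1.52 and 1.37, lie above every SAMR1 array.

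Of the transcription factors, Xbp1 was 3.54 to 4.39 in SAMR1 and 3.59 to 4.00 in SAMP8, with a difference of -0.17 (95% interval -0.50 to 0.16, adjusted p = 0.483). Its SAMR1-CR arrays alone span 3.54, 4.39 and 3.80. Atf4 has 2 detected probes, and they do not share a direction. The brighter one, ILMN_2642681, differed by -0.04 (95% interval -0.47 to 0.39, adjusted p = 0.908) and the dimmer one, ILMN_1223734, by 0.24 (95% interval -0.08 to 0.55, adjusted p = 0.296). The intervals of Xbp1 and Atf4 leave room for changes of the size seen for Herpud1 or Hspa5 in at least 1 direction.

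**Figure D2:**
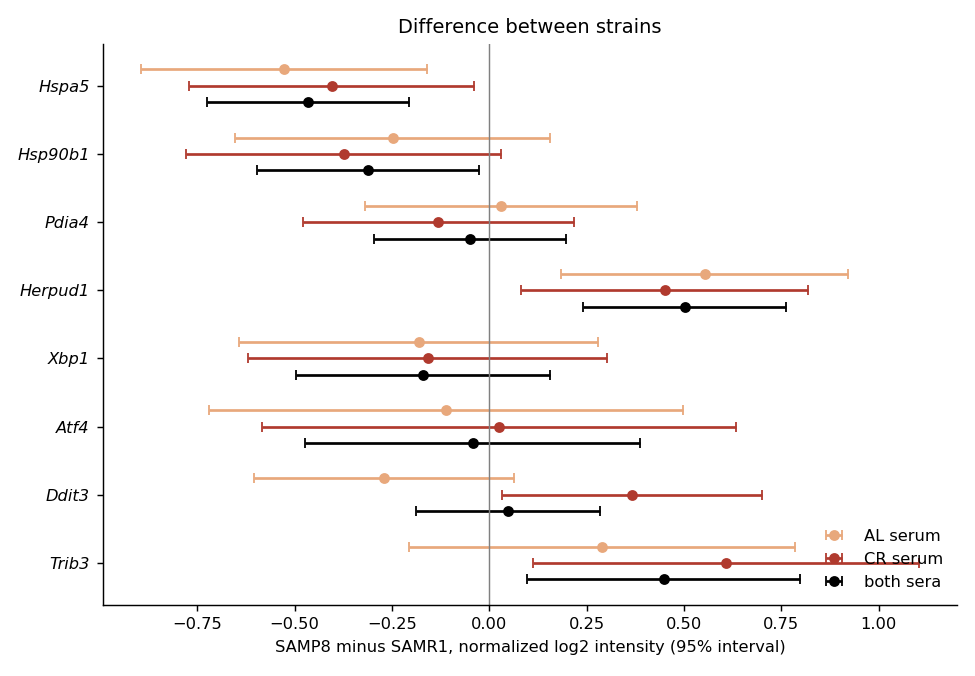
Difference SAMP8 minus SAMR1 in normalized log2 intensity (horizontal axis) with its 95% interval, for the 8 tested members under AL serum, CR serum and over both sera. Most SAMR1 arrays did not detect Trib3, so its points are no measured sizes. Hspa5 lies to the left of 0 and Herpud1 to the right in all 3, and Ddit3 lies to the left under AL serum and to the right under CR serum.

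Within the single sera none of the 8 members passed the test. In P8AL-R1AL limma called 0 members, against 9.67% of all 10935 probes. At an unadjusted limma p under 0.05 were 2 members and 2780 probes. The z test of the study's methods called 2 members after Benjamini-Hochberg adjustment. No share of all probes is given for the z test, here or below, so its counts are not read as a result about the members. Groups did not overlap for 3 members (Hspa5, Herpud1 and Ddit3), against 31.3% of probes. In P8CR-R1CR limma again called 0, against 2.8% (306 probes, or 477 with the replicate number as a block, still with 0 members). At an unadjusted limma p under 0.05 were 4 members and 1742 probes, and the z test called 3 members. Here 4 members did not overlap (Hspa5, Hsp90b1, Herpud1 and Trib3), against 20% of probes. Trib3 is in each of these P8CR-R1CR counts, at an unadjusted p under 0.05, by the z test and without overlap. It passed the filter through SAMP8-CR alone, so its part in the counts supports nothing. The median difference of the 8 members was -0.05 over both sera, with 3 positive and 5 negative, against 0.04 over all probes.

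Trib3, a pseudokinase gene that ATF4 and CHOP induce, was near the detection limit. Its tested probe was detected on 1 array of SAMR1-AL, on none of SAMR1-CR, on 1 of SAMP8-AL and on all 3 of SAMP8-CR. The values were -0.48, -0.84 and -1.26 in SAMR1-AL and -0.79, -0.91 and -0.99 in SAMR1-CR. They were -1.01, -0.78 and 0.07 in SAMP8-AL and -0.31, -0.52 and -0.04 in SAMP8-CR. SAMP8-CR lies above all SAMR1-CR arrays, which gives only a bound, at least 1.16-fold higher in SAMP8-CR (adjusted p = 0.203). The bound sets a group with no detected array at the lowest detected signal of its arrays, or at its own signal where that is higher.
Trib3 passed the filter through SAMP8-CR alone, the group where it was highest, so its difference over both sera (limma adjusted p = 0.0775) is not given a size and its place among the tested genes supports nothing.

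The CR serum changed none of the 8 members past the threshold in either strain. In R1CR-R1AL limma called 0 members and 0% of probes (373 probes had an unadjusted p under 0.05, none of them a member's), the z test also called 0, and no member's groups separated, against 3.9% of probes. In P8CR-P8AL limma called 0 members and 0% of probes (583 at an unadjusted p under 0.05), and the z test called 1, Ddit3. Over both strains serum called 0% of probes (401 at an unadjusted p under 0.05) and the strain by serum interaction 0% (479), members included.

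Ddit3 encodes CHOP, the factor tied to cell death under lasting ER stress. In SAMP8-AL it was 0.44, 0.55 and 0.62 and in SAMP8-CR 0.86, 1.01 and 1.14. All 3 SAMP8-CR arrays are above all 3 SAMP8-AL arrays, which was so for 19.4% of probes in 1 direction or the other. In SAMR1-AL it was 0.69, 0.99 and 0.73 and in SAMR1-CR 0.61, 0.91 and 0.40, which overlap. The difference P8CR-P8AL was 0.47 (95% interval 0.14 to 0.80), a fold of 1.39, with an unadjusted limma p of 0.009 and an adjusted p of 0.818. The difference R1CR-R1AL was -0.17 (95% interval -0.50 to 0.17, adjusted p = 0.999). The interaction, the difference between these, was 0.64 (SE 0.22), with an unadjusted limma p of 0.0117 and a limma adjusted p of 0.965.
The Ddit3 difference in SAMP8 was 0.42 within the first array set, with 1 array per group, and 0.51 within the second, with 2 per group. It ran from 0.40 to 0.53 when 1 array was left out. Between strains Ddit3 differed by -0.27 under AL serum (adjusted p = 0.302) and by 0.37 under CR serum (adjusted p = 0.256).

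**Figure D3:**
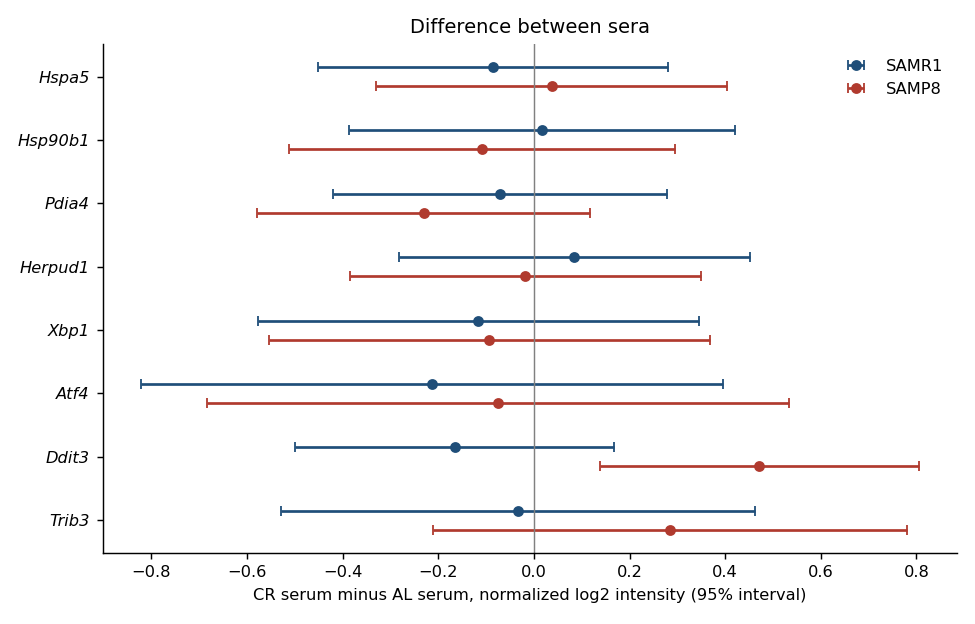
Difference CR serum minus AL serum in normalized log2 intensity (horizontal axis) with its 95% interval, for the 8 tested members in SAMR1 and SAMP8. The interval of Ddit3 in SAMP8, 0.14 to 0.80, is the one that leaves out 0, before adjustment over all probes, and Trib3 was not detected on most of the arrays compared.

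The other serum differences were small beside their intervals. In SAMP8 Pdia4 gave -0.23 (95% interval -0.58 to 0.12) and Hsp90b1 -0.11 (-0.51 to 0.29). Hspa5 gave 0.04 (-0.33 to 0.40) in SAMP8 and -0.08 (-0.45 to 0.28) in SAMR1. Herpud1 gave -0.02 (-0.39 to 0.35) in SAMP8 and 0.08 (-0.28 to 0.45) in SAMR1, so neither gene that differed between strains had a serum interval that left out 0.

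Across the 12 arrays Hspa5 and Herpud1 ran against each other (Pearson r = -0.87, and -0.56 after the group means were removed), and Hspa5 and Hsp90b1 ran together (0.76, and 0.50 within groups). Xbp1 and the brighter Atf4 probe were the closest pair (0.90, and 0.93 within groups). These are descriptions over 12 arrays that share their scaling. The normalized values of Hsp90b1, Atf4 and Xbp1 fell with the SD of the array (r = -0.76, -0.74 and -0.69) and, less closely, those of Hspa5 (-0.47), while those of Herpud1 and Trib3 rose with it (0.58 and 0.55), and the part of this in the correlations was not tested.
The genes whose pattern over the 12 arrays was most like that of Hspa5 were Kif18b (Pearson r = 0.94), Pid1 (0.94), Taf1d (0.94), Gmnn (0.92) and Tpx2 (0.92). For Ddit3 they were Cops5 (0.91), Cers5 (0.90), Snrpf (0.87), Chid1 (0.86) and 1110038B12Rik (0.85). Both sets were picked as the highest r among 8068 genes over 12 arrays, so they are a description and support nothing. The part of the strain difference in the Hspa5 values was not tested.

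The lists that follow are given for their genes, and no count is read as a result about its list. The background of each count is the share of all probes called between strains over both sera. That share was 15.6%, or 7.96% with the array set blocked. Of 18 tested genes in a wider list of ER chaperones and folding enzymes, 2 were lower in SAMP8 and 1 higher over both sera. The list had a median of -0.12 with 15 genes negative, but with median centring its median was 0.06, beside 0.16 for all probes. Uggt1, which rechecks the folding of glycoproteins, fell by 0.48 (adjusted p = 0.0474), but with median centring by 0.23 (adjusted p = 0.514). Ero1b, an oxidase that recharges the disulfide isomerases, was detected on all 6 SAMP8 arrays and on no SAMR1 array, with means of -0.14 and -0.15 in SAMP8-AL and SAMP8-CR against -0.71 and -0.77 in SAMR1. It was at least 1.26-fold higher in SAMP8 under AL serum (adjusted p = 0.00296) and at least 1.28-fold higher under CR serum (adjusted p = 0.00205). Ero1b passed the filter through SAMP8 alone, so that its test adds nothing to these bounds. With the array set blocked no other gene of this list was called.
In ER-associated degradation 3 of 14 tested genes were called. Herpud1 and Sel1l, the partner of the ubiquitin ligase HRD1, were higher (Sel1l 0.35, adjusted p = 0.0268), and Edem2, which trims glycoproteins for removal, fell by 0.41 (adjusted p = 0.0347), but with median centring by 0.14 (adjusted p = 0.696). The list had a median of -0.02, and blocking the array set left none of its genes called.

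Among 9 tested sensors and transcription factors of the response only Nfe2l2, the antioxidant factor that PERK can activate, was called. It rose by 0.92 over both sera (SE 0.19, adjusted p = 0.00457) and by 1.28 under AL serum (adjusted p = 0.00915), where SAMR1-AL ran from 0.12 to 0.68 and SAMP8-AL from 1.57 to 1.80. Under CR serum the strains overlapped, from 0.09 to 1.39 in SAMR1-CR and from 1.29 to 1.62 in SAMP8-CR, and Nfe2l2 was not called. The Nfe2l2 difference over both sera with the array set blocked was 0.90 (adjusted p = 0.0553).
Of 23 tested targets of PERK and ATF4, 2 were higher and 1 lower. Eif4ebp1, a repressor of translation, rose by 0.66 (adjusted p = 0.00597). The other higher gene is Cth, an enzyme of cysteine synthesis (adjusted p = 0.0122), detected on 1 array of SAMR1-AL and 2 of SAMR1-CR. Cth passed the filter through SAMP8 alone, where it was higher, so it is given no size and its call supports nothing. Nars, the asparaginyl-tRNA synthetase, fell by 0.50 (adjusted p = 0.00115), with 2.45 to 2.56 in SAMR1 and 1.90 to 2.08 in SAMP8, and was still called with the array set blocked (-0.55, adjusted p = 0.0145), but not within the first set (-0.54, adjusted p = 0.112) or with median centring (-0.30, adjusted p = 0.394). With the array set blocked the list had 0 genes higher and 2 lower of 23, against 7.96% of all probes called.

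In the translocon, signal peptidase and COPII list 2 of 19 tested genes fell, Ssr4 of the translocon by 0.67 (adjusted p = 0.0067) and Sec11c of the signal peptidase by 0.44 (adjusted p = 0.0245), and neither was called with the array set blocked or with median centring, where Ssr4 was -0.37 and Sec11c -0.20. Bcl2l1, which encodes the survival protein Bcl-xL, was the 1 called of 9 cell death genes and rose by 0.53 (adjusted p = 0.0261), or 0.51 with the array set blocked (adjusted p = 0.181). Hspb1, a small heat shock protein of the cytosol and the 1 called of 11 genes of that response, fell by 1.90 (SE 0.25, adjusted p = 0.000213), from 5.14 to 6.79 in SAMR1 to 3.77 to 4.54 in SAMP8, and within the first array set it fell by 1.98 (adjusted p = 0.026). In none of the 7 lists was a gene called between sera.

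**Figure D4:**
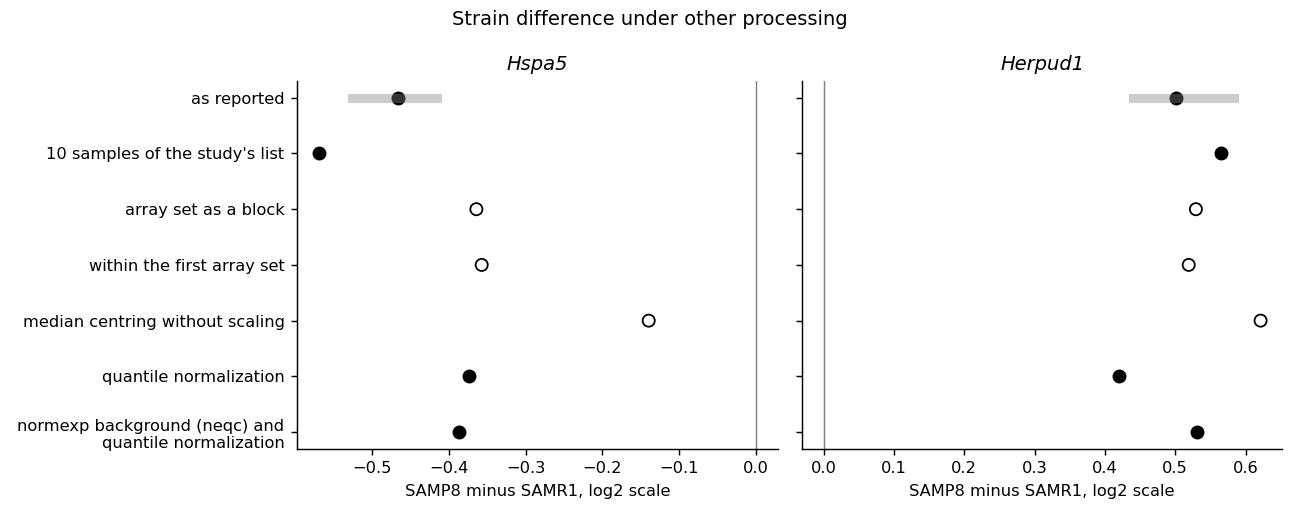
Difference SAMP8 minus SAMR1 over both sera on the log2 scale (horizontal axis) for Hspa5 and Herpud1 under 7 ways of processing (vertical axis). Filled points passed an adjusted p of 0.05, open ones did not, and the grey band is the range when 1 array is left out. The size of Herpud1 stays between 0.42 and 0.62, and that of Hspa5 moves from -0.57 to -0.14.

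Cell markers were also compared between strains over both sera, with 15.6% of all probes called as the background of each count. Of 7 tested microglia and macrophage markers 6 were negative and 1 positive, and 5 were called, all lower in SAMP8. The log2 of the summed level of the 7 ran from 5.32 to 6.38 in SAMR1-AL and 5.81 to 6.23 in SAMR1-CR. It ran from 4.21 to 5.14 in SAMP8-AL and 4.87 to 5.22 in SAMP8-CR, and Itgam was not detected on any array. With the array set blocked 4 of the 7 were still lower, against 7.96% of all probes called. Of 7 astrocyte markers, all detected on every array, 5 were positive and 2 negative over both sera and 3 were called (Glul, Aldoc and Aqp4, all higher), while under CR serum 4 of 7 were negative, and with the array set blocked Glul alone was called. Slc1a2, another astrocyte marker, was not detected on any array. Of the other marker lists, 2 of 4 tested oligodendrocyte and precursor genes (Olig2 and Cnp) were called higher in SAMP8. In the neuron list 1 of 4 genes (Syt1) was called higher, but 2 were positive and 2 negative, with a median of 0.003. In the fibroblast list 1 of 7 genes (Col1a2) was called higher. Olig2 rose by 0.89 under AL serum (limma adjusted p = 0.000741). Under CR serum it was not called and the strains overlapped, from -0.51 to -0.15 in SAMR1-CR and from -0.24 to -0.07 in SAMP8-CR. Of Olig2, Cnp, Syt1 and Col1a2, Olig2 alone was called over both sera with the array set blocked. With that block Col1a2 was 0.16 (adjusted p = 0.616) and the fibroblast list turned to 0 higher and 2 lower, with a median of -0.71 in place of 0.31. Col1a2 passed the filter through SAMP8-CR alone, the group where it was highest, so its call supports nothing. Limma called 0 of 2 endothelial genes, and both change sign with that block, Cdh5 from 0.33 (adjusted p = 0.396) to -0.37 (adjusted p = 0.395) and Flt1 from 0.16 (adjusted p = 0.53) to -0.07 (adjusted p = 0.892). Mog, Mag, Nefl, Pecam1, Kdr and Tek were not detected on any array. The part of these markers in the differences of Hspa5, Herpud1 and the lists was not tested, and in a mixed culture fewer cells of a type and less RNA per cell cannot be told apart.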

How the data were processed

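Total RNA of 12 astrocyte cultures, 3 in each of the 4 groups, was hybridized to Illumina MouseRef-8 arrays. The authors deposited the bead intensity of each probe on a linear scale, with no background correction, together with detection p-values. The Z score that the authors deposited in another table is the log intensity less the mean of its array, in units of its SD, and was checked against the intensities.
Here each array's log2 intensities were turned into Z scores and put on the average SD of the arrays. Probes with detection under 0.05 on all arrays of some group were kept (10935 probes, 8068 genes), and the brightest of them stood for a gene. All 12 arrays and 4 groups entered 1 limma fit (limma 3.58.1 in R 4.3.3, lmFit and eBayes with a trend), with p-values adjusted by Benjamini-Hochberg over all kept probes. Tables and figures used Python 3.11.15 with matplotlib 3.10.9. By the platform annotation 20984 of 24613 probes have 1 gene, 1 has several and 3628 have none, with 0 symbols updated. Promoters came from RefSeq (GRCm38.p6). Same-numbered arrays correlated above 0.1 in their deviations from the group means in all 3 pairs of P8CR-R1CR (0.19 to 0.37) and of P8CR-P8AL (0.12 to 0.44), so the numbers may pair these samples, as seen in the data and stated by no label. In SAMP8, however, replicate 1 of both sera lies in the first array set and replicates 2 and 3 in the second. SAMP8-AL replicate 3 was also closest to SAMP8-CR replicate 2. The part of the array set in the P8CR-P8AL correlations was not tested. Procedures were tested on simulated data. Precision is limited by the number of arrays.
The 10 genes, the 7 gene lists and 6 marker lists were chosen with earlier results of these data known. Besides the 10 genes, the text names list genes past the threshold, or else the 2 of smallest p in a list, and the 5 genes most like Hspa5 and Ddit3.
Alternatives were the 10 arrays of the study's list, each array left out, quantile, neqc and median normalization, other filters, no trend, probe means, a replicate block, the array sets and the Z ratio of the study's methods (at least 1.5, z test). Chosen after seeing the data were the second array set alone and the 10 arrays with an array set block.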

Additional observations from a re-analysis of the deposited data

How the results depend on the processing

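Over 56 differences of the 8 members, 2 passed the threshold, Hspa5 and Herpud1 between strains over both sera. Of 52 values of these 2 under other processing, 42 kept direction and call and 10 kept the direction only. With all 12 arrays the count of members called between strains was 2, against 15.6% of all probes. It was 1 to 3 when 1 array was left out, against 11.1% to 17.7% of probes, and 1 with median centring, against 10.8%. With the array set as a block it was 0, against 7.96%. The count was also 0 with the 10 arrays of the study's list and an array set block, against 1.46%, where Hspa5 was -0.51 and Herpud1 0.52. Within the first array set, with 1 array in each SAMP8 group, Hspa5 was -0.36 and Herpud1 0.52. The counts of 0 are not read as a result about the members. The 1 call with median centring is Trib3. So is the third call without SAMR1-AL replicate 1, without SAMP8-AL replicate 1 and with the 10 arrays (3 calls, 14.6% of probes). Trib3 was mostly undetected in SAMR1 and passed the filter through SAMP8-CR, so these calls support nothing. In P8AL-R1AL, with 0 members called, leaving out 1 array gave 0 to 2. It gave 2 without SAMR1-AL replicate 1 (8.96% of probes) and 1 without SAMR1-CR replicate 2 (12.2%). Without a trend eBayes gave 1 (Hspa5, limma adjusted p = 0.0437), against 8.6% of probes. By the Z ratio and z test 2 were called before and 2 after Benjamini-Hochberg adjustment in P8AL-R1AL, 5 and 3 in P8CR-R1CR, and 2 and 1 in P8CR-P8AL. Trib3 is among the 5 and the 3 of P8CR-R1CR, where its call supports nothing. The causes were not tested. A replicate block gave 1 member in P8AL-R1AL (Herpud1, limma adjusted p = 0.0398), against 12.5% of probes, and changed no other call of a member. In P8AL-R1AL same-numbered arrays correlated from -0.11 to 0.02, which gives no sign of pairing. In R1CR-R1AL they gave 0.57, 0.09 and 0.13 for replicates 1, 2 and 3, which does not settle whether the numbers pair. Trib3 and Calr lie at or near background on most arrays, which limits what their probes can show. Over all probes the strain comparison called from 164 to 2025 probes, and P8AL-R1AL from 47 to 1372, over the alternatives.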
